A study of Mus musculus with 12 samples.

Results

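The peaks described here are the regions of open chromatin that the deposited tables assign to genes of the mitochondrial carrier family, Slc25. They were taken as all peaks whose nearest gene has a symbol that starts with Slc25a and a number, leaving out Slc25a1 and Slc25a20. This gave 213 of 139999 peaks and 42 of 19395 genes, and all 213 peaks are 400 bp wide. Of them, 48 lay within 1 kb of a gene start, 62 in introns and 60 in distal intergenic sequence. Slc25a24 had 16 peaks, Slc25a13 had 14, Slc25a33 had 13, Slc25a51 had 11 and Slc25a12 had 10. A peak carries the name of the gene whose start is nearest, and whether a distal peak acts on that gene was not tested. Distances are to the nearest annotated start, and in genes with several starts peaks can be measured from different ones.

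Accessibility was measured by ATAC-seq, in which the transposase Tn5 cuts open chromatin and the cut fragments are sequenced. The cells, per the labels, were macrophages derived from bone marrow of male C57BL/6J mice aged 8 weeks, either made diabetic with 5 daily injections of streptozotocin at 42 to 45 mg/kg, after a fast of 12 h, or kept as controls. Mice above 16.9 mmol/L blood glucose counted as diabetic and stayed so for 6 weeks before marrow was taken. The 6 groups hold 2 libraries each. They are the diabetic and healthy groups of the first phase, the diabetic-trained and untrained groups of the rest phase, kept 7 days in medium of 5 mmol/L glucose plus M-CSF, and the diabetic-trained and untrained groups of the second phase, then treated for 16 h with LPS at 100 ng/mL and IFN-γ at 10 ng/mL. The labels give no time for the first phase, nor whether each library had an animal of its own, so the p-values take in the differences among libraries alone, which could be technical. The deposited tables do not tie their 2 mean columns to the diabetic or the control group. Here A stands for the group of the first mean column in a table and B for the other. The letters carry over from one phase to the next in name only.

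Carriers of the Slc25 family are small membrane proteins, most of them in the inner mitochondrial membrane, that exchange or import metabolites which cannot cross it freely. Among them are the ADP/ATP and phosphate carriers that feed ATP synthesis, the aspartate/glutamate and oxoglutarate/malate carriers of the malate-aspartate shuttle, amino acid carriers, carriers of cofactors such as NAD, coenzyme A and S-adenosylmethionine, and the mitoferrins that import iron for haem and iron-sulfur clusters. Macrophages change their use of mitochondrial metabolites when they mature and when they meet IFN-γ and LPS.

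The start regions of 5 members are printed because their start peaks differed between the rest and first phases in the test given below. Those of Slc25a45 and Slc25a17 were higher in the rest phase after quantile scaling, with the sign for Slc25a17 turned under total-read and median-of-ratios scaling, and those of Slc25a3, Slc25a11 and Slc25a15 lower. Of the 17 start peaks called, 8 overlapped a RefSeq window, and those of Slc25a29, Slc25a5 and Slc25a53 are not shown. Each window is the 250 bases before an annotated start, with 224 to 250 of them inside the peak but only 34 for Slc25a45, whose marked letters lie outside its peak, 5′ to 3′ on the gene's strand, from RefSeq on GRCm38.p6, the assembly that UCSC calls mm10. Capitals mark letters of the searched motifs. The windows are chr19:5877572-5877821 on the plus strand for Slc25a45, and on the minus strand chr15:81360766-81361015 for Slc25a17, chr10:91123968-91124217 for Slc25a3, chr11:70647040-70647289 for Slc25a11 and chr8:22398622-22398871 for Slc25a15.
Slc25a45: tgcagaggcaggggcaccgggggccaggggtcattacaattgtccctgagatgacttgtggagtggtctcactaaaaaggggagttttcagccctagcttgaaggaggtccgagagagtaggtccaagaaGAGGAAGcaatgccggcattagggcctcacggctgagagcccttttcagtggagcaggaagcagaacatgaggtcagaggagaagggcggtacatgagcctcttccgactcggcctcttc
Slc25a17: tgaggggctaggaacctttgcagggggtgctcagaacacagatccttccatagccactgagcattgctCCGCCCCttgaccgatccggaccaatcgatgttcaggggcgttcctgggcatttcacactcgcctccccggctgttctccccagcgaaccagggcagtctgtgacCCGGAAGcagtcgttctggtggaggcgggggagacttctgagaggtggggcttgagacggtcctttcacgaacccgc
Slc25a3: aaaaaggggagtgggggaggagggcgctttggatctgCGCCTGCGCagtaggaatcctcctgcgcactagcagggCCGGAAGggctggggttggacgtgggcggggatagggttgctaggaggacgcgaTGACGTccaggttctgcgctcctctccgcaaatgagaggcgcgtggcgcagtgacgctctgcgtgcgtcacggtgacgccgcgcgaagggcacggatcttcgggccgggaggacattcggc
Slc25a11: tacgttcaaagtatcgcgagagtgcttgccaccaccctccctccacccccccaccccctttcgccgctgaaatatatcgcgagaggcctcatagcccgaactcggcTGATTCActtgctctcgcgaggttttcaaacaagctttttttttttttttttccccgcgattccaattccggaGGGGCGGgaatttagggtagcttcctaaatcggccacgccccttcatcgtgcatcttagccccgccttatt
Slc25a15: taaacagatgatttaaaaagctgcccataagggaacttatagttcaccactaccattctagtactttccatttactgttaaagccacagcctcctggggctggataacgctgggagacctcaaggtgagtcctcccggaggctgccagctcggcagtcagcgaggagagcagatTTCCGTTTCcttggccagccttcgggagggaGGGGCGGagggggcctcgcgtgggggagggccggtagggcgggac

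Motifs were searched on both strands as fixed letters, where N is any base. The cAMP response element (CRE) was TGACGTCA. Its shorter core, which the full element contains, was TGACGT. The letters GCGCANGCG stood for NRF1, a regulator of nuclear genes for mitochondrial proteins. The E-box was CACGTG and the GATA motif was AGATAA. The ETS core was CCGGAAG, and the PU.1 type was GAGGAAG. The GC box of SP and KLF factors was GGGGCGG. AP-1 was TGANTCA and the type of the IRF factors was GAAANNGAA. Matches may overlap each other. The Slc25a45 window held the PU.1-type letters, and the Slc25a17 window an ETS core and a GC box. Slc25a3 held NRF1, ETS core and CRE core letters, Slc25a11 an AP-1 match and a GC box, and Slc25a15 an IRF-type match and a GC box. RefSeq windows were at hand for 34 of the 42 genes, 44 windows in all. Among these 44, 40.9% held the GC box and 15.9% the E-box, against 21.0% and 6.02% of all 32817 windows. The ETS core stood in 11.4% of the 44 and 6.90% of all, the CRE core in 9.09% and 6.46%, the full CRE in 4.55% and 1.55%, NRF1 in 4.55% and 5.16%, the IRF type in 9.09% and 7.12%, AP-1 in 4.55% and 6.75%, the PU.1 type in 6.82% and 10.6%, and GATA in 4.55% and 9.99%. These are matches of letters, with no test of the shares and no statement on binding.

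Over the 139557 peaks whose reads could be worked back from the group means, libraries held between 3827344 reads (second phase, B1) and 18602644 reads (rest phase, A1), and the median Slc25 peak held 11 to 61 reads in a library. Libraries are numbered 1 and 2 within a group by what a read was worth in the authors' scaling, and these numbers are not the labels' replicate numbers. The first-phase A libraries were close to sampling noise apart, with a variance 1.08 times that of counting in peaks of at least 400 reads, against 2.62 to 35.0 times in the other pairs, and count as 1 sample between phases. Levels below are log2(reads + 1) after quantile scaling over all 12 libraries, and where 4 values are given they are those of A1, A2, B1 and B2. Second-phase libraries A1 and B1 stood apart from their group partners. Over 139 peaks of 16 IFN-γ and LPS response genes, the log2 summed level was 12.88 in A1 and 12.94 in B1, against 12.84 to 12.89 in the 4 rest-phase libraries, while A2 reached 14.14 and B2 14.33. The comparison of the second with the rest phase is therefore given with and without A1 and B1. For A against B within the second phase, 1 library a group is left without them, and values by library stand in place of a test.

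Cell type markers also moved between the first phase and the others. Macrophage markers (100 peaks of 12 genes) had log2 summed levels of 13.18 to 13.62 in the rest phase, against 12.53 to 12.89 in the first phase. Neutrophil markers (61 peaks of 10 genes) had 10.71 to 11.10 in the rest phase, against 12.72 to 13.68 in the first phase. B cell markers (56 peaks of 6 genes, with no peak for Vpreb1 or Ighm) had 10.31 to 10.43 in the rest phase, against 10.88 to 12.46 in the first phase. Macrophage signal was thus above, and neutrophil and B cell signal below, the whole first-phase range in every rest-phase library. Erythroid markers (58 peaks of 10 genes, none for Hbb-bs) had 10.77 to 10.90 in the rest phase, against 11.64 to 12.48 in the first phase. T and NK cell, megakaryocyte and dendritic markers had overlapping or nearly equal ranges. Their log2 summed levels were 11.27 to 11.80, 11.26 to 11.57 and 11.06 to 11.33 in the rest phase, against 11.46 to 11.65, 11.18 to 11.40 and 10.88 to 11.20 in the first phase, in that order of cell types. The summed level of each list was above 0 in every library, and the part of cell makeup in the differences below was not tested. In such bulk samples, fewer cells of a type and less open chromatin per cell cannot be told apart.

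Start regions of the family spanned a wide range of accessibility. The peak nearest to the start of Slc25a28, which encodes mitoferrin 2, an iron importer, had the highest mean level, 9.91, and the narrowest spread, 9.77 to 10.06 over the 12 libraries. Slc25a42, the coenzyme A carrier, followed at 9.54 (9.14 to 9.86), a range that overlaps that of Slc25a28. Next were Slc25a32, a folate carrier, at 9.24 (8.54 to 9.74), Slc25a39, needed for glutathione import, at 9.21 (8.79 to 9.52), the oxoglutarate/malate carrier Slc25a11 at 9.09 (8.36 to 9.59) and the phosphate carrier Slc25a3 at 9.0 (8.67 to 9.45). The ranges of these 4 overlap each other and that of Slc25a42, so that the order of these genes is not told apart. Among the ADP/ATP carriers, Slc25a4 had 7.62 (7.03 to 8.01) and Slc25a5 had 7.27 (6.70 to 7.80). The lower end held Slc25a18, a glutamate carrier, and Slc25a47, each at 3.90, and Slc25a37, mitoferrin 1, at 3.97. For 5 genes no peak assigned to the gene lay within 1 kb of the start, and a peak there that carries another gene's name would be missed. These were Slc25a25, Slc25a31, Slc25a37, Slc25a47 and Slc25a54, and the nearest peak assigned to Slc25a37 lay 31.8 kb inside it.

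**Figure D1:**
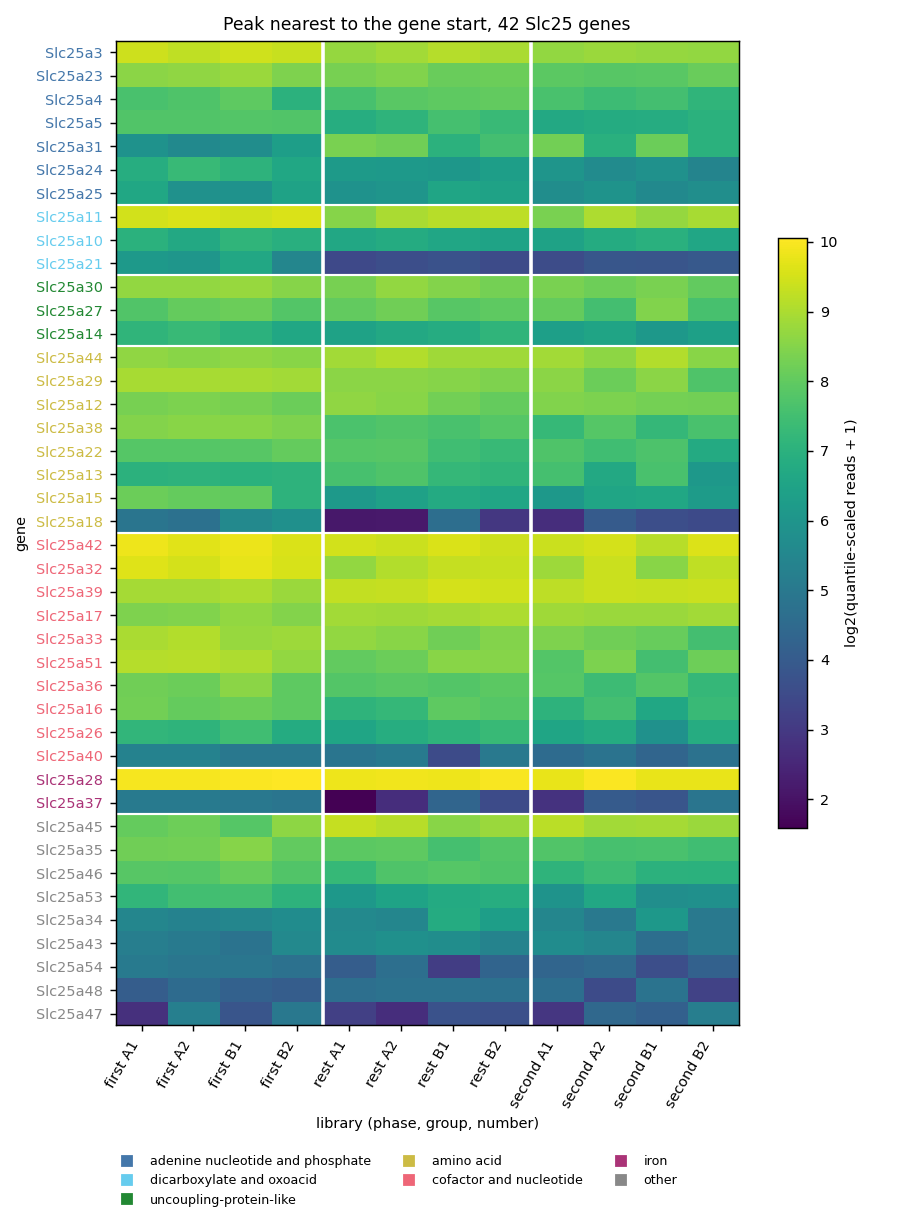
Level at the peak nearest to the start of each of the 42 genes (rows, coloured by role) in the 12 libraries (columns by phase, group and number), as log2(quantile-scaled reads + 1) by colour. Slc25a28 stays between 9.77 and 10.06 throughout, while Slc25a21 is darker in every rest-phase and second-phase library than in the first phase.

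Between the rest and first phases, with groups A and B pooled (n = 4 against 3), 31 Slc25 peaks were higher and 35 lower in limma at a Benjamini-Hochberg adjusted p under 0.05 over all peaks, and 147 were not called. That is 14.6% higher and 16.4% lower, against 19.8% higher and 18.7% lower among all 139557 peaks tested. The median log2 fold of the family was -0.02, against 0.02 over all peaks. The 4 largest falls all lay further than 1 kb from a start. Among the 4 largest rises, that of Slc25a28 lay at an inner start. The others, all of Slc25a13, lay further than 1 kb from a start. Of the 48 peaks within 1 kb of a start 4 were higher and 15 lower (8.33% and 31.2%, against 12.5% and 31.9% of all such peaks), while of the 165 further away 27 were higher and 20 lower (16.4% and 12.1%, against 21.3% and 16.1% of the 116216 such peaks). Of the 42 peaks nearest to a start, 4 were higher and 13 lower (9.52% and 31.0%, against 12.4% and 30.3% over the 19377 genes with a tested peak). In 10 genes some peaks were higher and others lower, 8 genes had only higher calls, 11 only lower calls and 13 none. Scaling by total reads in peaks, which moved the median log2 fold of all peaks to 0.31, gave 46 higher and 32 lower (21.6% and 15.0%, against 26.6% and 13.2% of all peaks). Size factors by median of ratios gave 27 higher and 41 lower (12.7% and 19.2%, against 19.6% and 18.3% of all peaks), and the folds at several starts below moved with this scaling.

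**Figure D2:**
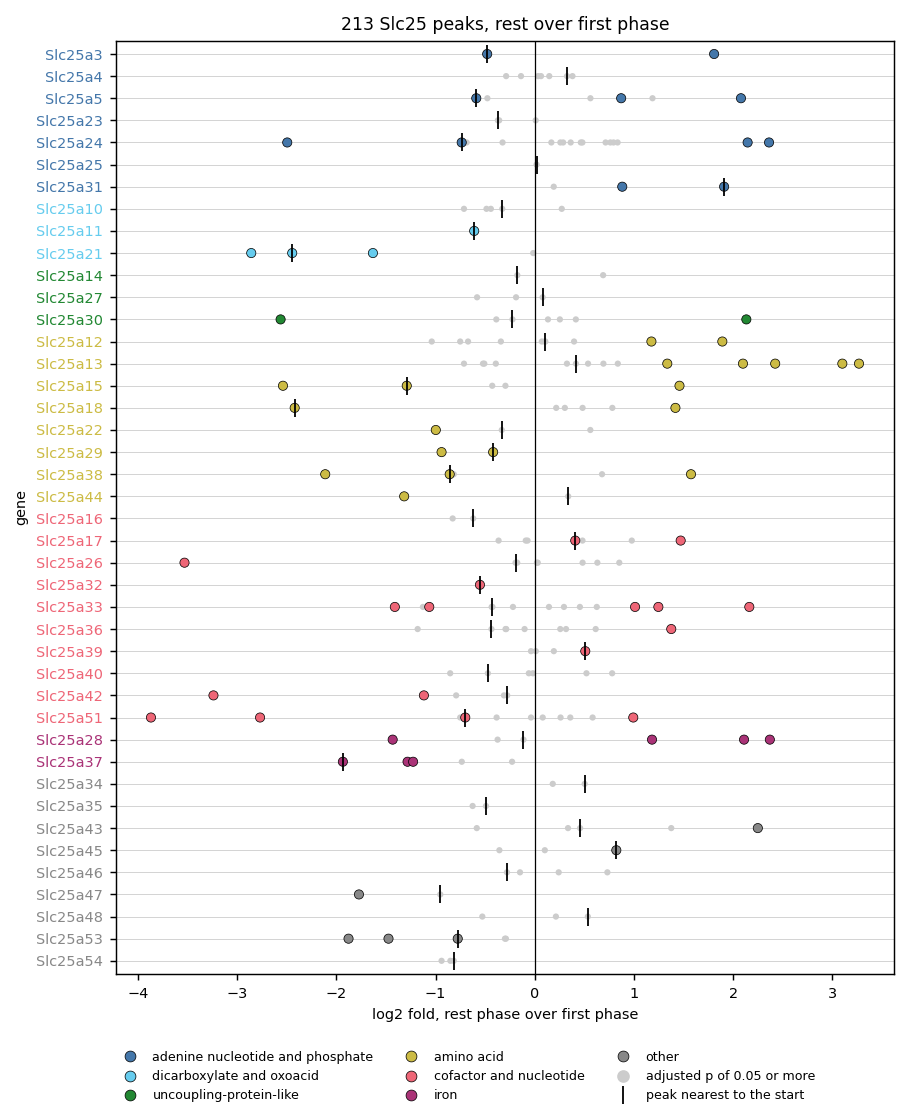
Log2 fold of each of the 213 peaks, rest over first phase (x axis), by gene (y axis, grouped by role). Coloured points have an adjusted p under 0.05, grey points do not, and black ticks mark the peak nearest to the start, which lies left of 0 in 13 of the 17 genes where it was called.

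The iron importer gene Slc25a28 had peaks that rose and a peak that fell. The peak at an inner start of Slc25a28 (chr19:43667105-43667504) had scaled log2 levels of 8.30, 8.25, 7.78 and 8.16 in rest-phase libraries, against 5.35, 5.60, 5.69 and 6.33 in first-phase libraries. All rest-phase libraries lay above the first-phase range, and the log2 fold was 2.37 ± 0.25 (SE; adjusted p = 7.77e-06). The intronic peak 3.4 kb upstream of that start rose by 2.11 (adjusted p = 3.26e-05) and the peak 2.2 kb upstream by 1.18 (adjusted p = 0.00401). The main start (chr19:43674836-43675235) had scaled log2 levels of 9.86, 9.89, 9.85 and 9.98 in rest-phase libraries, against 9.95, 9.96, 10.01 and 10.06 in first-phase libraries, with a log2 fold of -0.11 ± 0.11 (adjusted p = 0.442). This peak was called lower under total-read and median-of-ratios scaling, with a log2 fold down to -1.33. A peak 17.2 kb downstream of the nearest annotated start, which is not the main one, fell by 1.43 (chr19:43648334-43648733, adjusted p = 0.001).

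Slc25a37, whose product supplies iron for haem in red cell precursors, had 5 peaks, of which 3 fell and none rose. At its nearest peak, 31.8 kb from the start (chr14:69252732-69253131), there were scaled log2 levels of 1.58, 2.70, 4.35 and 3.53 in rest-phase libraries, against 5.06, 5.08, 4.99 and 4.89 in first-phase libraries. All 4 rest-phase libraries lay below the first-phase ones, most so in group A, and the log2 fold was -1.94 ± 0.54 (adjusted p = 0.011). With only group B of the rest phase the call was lost (adjusted p = 0.0877). The peaks at 46.4 and 43.0 kb fell by 1.28 and 1.23, and neither was called under total-read scaling. The call at 43.0 kb was also lost with only group B of the rest phase. The erythroid markers, of whose 58 peaks 27 were lower and 6 higher, moved in the same comparison, and their part was not tested.

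Among amino acid carriers 10 of 47 peaks rose and 9 fell, where 19.8% of all peaks rose and 18.7% fell. Differences between the groups of carriers named here and below were not tested. Slc25a13, an aspartate/glutamate carrier of the malate-aspartate shuttle, had the largest rises of the family, and none of its 14 peaks fell. The peak 3.4 kb upstream of its start (chr6:6220533-6220932) had scaled log2 levels of 8.26, 8.05, 7.00 and 6.85 in rest-phase libraries, against 3.82, 5.08, 4.45 and 3.92 in first-phase libraries. The phases did not overlap, and the log2 fold was 3.27 ± 0.37 (adjusted p = 1.25e-05). The peaks 13.1 and 13.9 kb upstream rose by 3.10 and 2.42. Inside the gene, 2 intronic peaks (chr6:6120829-6121228 and chr6:6116306-6116705) rose by 2.10 and 1.34. They lay 25.6 and 21.1 kb upstream of an inner start. The call at chr6:6116306-6116705 was lost without rest-phase A1 or A2, without first-phase A1 and with only group B. The Slc25a13 start peak (chr6:6216962-6217361) had scaled log2 levels of 7.59, 7.74, 7.24 and 7.12 in rest-phase libraries, against 7.02, 7.07, 6.98 and 7.05 in first-phase libraries, and was not called (log2 fold 0.41 ± 0.22, adjusted p = 0.157). It was called higher under total-read scaling and with only group A, with log2 folds up to 0.85.

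The paralogue Slc25a12 behaved alike in that its start was not called while other peaks rose. Its start peak (chr2:71367509-71367908) had scaled log2 levels of 8.64, 8.55, 8.27 and 8.05 in rest-phase libraries, against 8.31, 8.39, 8.32 and 8.17 in first-phase libraries, with a log2 fold of 0.11 ± 0.19 (adjusted p = 0.69). The peak 1.3 kb inside the transcript with the nearest start rose by 1.89 ± 0.28 (adjusted p = 0.000133) and the 3′ UTR peak by 1.18 ± 0.21 (adjusted p = 0.0005). The glutamate carrier Slc25a22 has several promoter peaks. The one taken as its start peak (chr7:141437437-141437836) had scaled log2 levels of 7.81, 7.86, 7.46 and 7.30 in rest-phase libraries, against 7.82, 7.84, 7.86 and 8.05 in first-phase libraries, and was not called (adjusted p = 0.223), while another promoter peak fell by 1.00 (adjusted p = 0.00496, not called under total-read scaling). The start peak of the related Slc25a18 fell by 2.42 (adjusted p = 0.00289). A peak 1.2 kb upstream of the start rose by 1.42 (adjusted p = 0.0174), a call lost without first-phase library B2 and with only group A of the rest phase.

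Slc25a15, the ornithine/citrulline carrier that links mitochondria to the urea cycle, fell at its start. That peak (chr8:22398446-22398845) had scaled log2 levels of 6.15, 6.44, 6.77 and 6.60 in rest-phase libraries, against 8.16, 8.06, 8.02 and 7.05 in first-phase libraries. The rest-phase libraries all lay below the first-phase ones, with the smallest gap to first-phase B2, and the log2 fold was -1.29 ± 0.29 (adjusted p = 0.00247). A 3′ UTR peak 38.8 kb away had scaled log2 levels of 2.32, 2.17, 2.22 and 3.53 in rest-phase libraries, against 5.48, 6.04, 5.48 and 4.07 in first-phase libraries, and fell by 2.54 (adjusted p = 0.000897). Another Slc25a15 peak, further away (chr8:22343334-22343733), rose by 1.46, a call lost in 10 of 14 alternatives. Slc25a38, the glycine carrier of haem synthesis, fell at its start (chr9:120110582-120110981), where levels were 7.65, 7.75, 7.64 and 7.81 in the rest phase, against 8.50, 8.54, 8.55 and 8.42 in the first phase (log2 fold -0.86 ± 0.17, adjusted p = 0.00102). Another promoter peak of Slc25a38 fell by 2.11 and an intronic peak 3.2 kb inside rose by 1.57. Slc25a29, a carrier of basic amino acids, fell by 0.42 at its start, a call lost when any of 5 libraries was left out (rest-phase A2, B1 or B2 or first-phase B1 or B2) and with a log2 fold of -1.23 under median-of-ratios scaling. Slc25a44, a carrier of branched-chain amino acids, fell by 1.32 at a peak 2.4 kb inside.

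Of the 38 peaks of adenine nucleotide and phosphate carriers 7 rose and 4 fell, against 19.8% and 18.7% of all peaks. Slc25a3, the phosphate carrier, whose start window holds the NRF1 and ETS letters, had scaled log2 levels of 8.72, 8.89, 9.12 and 8.97 in rest-phase libraries, against 9.41, 9.26, 9.45 and 9.34 in first-phase libraries at its start (chr10:91123851-91124250). The rest-phase libraries were all lower, by a log2 fold of -0.48 ± 0.14 (adjusted p = 0.0167, and 0.0719 without first-phase library B1), and of -1.43 under median-of-ratios scaling. The peak 13.3 kb upstream rose by 1.81 ± 0.25 (adjusted p = 6.8e-05). Slc25a4, the ADP/ATP carrier of heart and muscle, had no called peak among 7, with scaled log2 levels of 7.59, 7.88, 7.95 and 8.01 in rest-phase libraries, against 7.61, 7.74, 7.95 and 7.03 in first-phase libraries at its start (chr8:46210855-46211254; log2 fold 0.33 ± 0.24, adjusted p = 0.306).

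Slc25a5, the ADP/ATP carrier found in most tissues, had scaled log2 levels of 6.87, 7.11, 7.55 and 7.33 in rest-phase libraries, against 7.77, 7.75, 7.80 and 7.75 in first-phase libraries at its start (chrX:36795372-36795771). All 4 rest-phase libraries were lower (log2 fold -0.59 ± 0.21, adjusted p = 0.042), but the call was lost in 7 of 15 alternatives, among them leaving out rest-phase A1, A2 or B2 or first-phase B1 or B2. Peaks 7.0 and 10.5 kb beyond the nearest annotated start of the gene rose by 2.08 and 0.87, the peak at 10.5 kb not called under median-of-ratios scaling (adjusted p = 0.206). Slc25a24, a calcium-regulated ATP-Mg/phosphate carrier, had 16 peaks, reaching up to 95.9 kb from the start. The intronic peak 32.7 kb inside (chr3:109155866-109156265) had scaled log2 levels of 6.91, 6.68, 5.67 and 5.96 in rest-phase libraries, against 4.51, 4.34, 3.83 and 3.42 in first-phase libraries, and rose by 2.36 ± 0.37 (adjusted p = 0.00017). The peak at 73.0 kb rose by 2.15, and those at 8.9 kb and at the start fell by 2.50 and 0.74. The fall at its start was not called in 5 of 15 alternatives, among them leaving out rest-phase A2 or first-phase B1. Slc25a31, an ADP/ATP carrier known from the testis, rose by 1.91 at its nearest peak, 3.4 kb from the start. Slc25a23 and Slc25a25 had no called peak among 3 and 1, though the Slc25a23 start was called lower in 3 of 15 alternatives.

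Of the 10 peaks of dicarboxylate and oxoacid carriers 4 fell and none rose, and 3 of the 4 falls were at Slc25a21. Over all peaks 18.7% fell and 19.8% rose. Slc25a11, with the GC box and AP-1 letters in its start window, has its single peak over the start (chr11:70646873-70647272). It had scaled log2 levels of 8.52, 8.99, 9.16 and 9.20 in rest-phase libraries, against 9.48, 9.58, 9.49 and 9.59 in first-phase libraries, and the log2 fold was -0.61 ± 0.17 (adjusted p = 0.012), called in all 15 other fits at the same threshold, with log2 folds from -1.59 (median of ratios) to -0.43 (only group B). Slc25a21 is the oxodicarboxylate carrier. Its start peak (chr12:57196874-57197273) had scaled log2 levels of 3.45, 3.63, 3.70 and 3.53 in rest-phase libraries, against 6.14, 6.04, 6.68 and 5.48 in first-phase libraries, a fall of 2.45 with no overlap (adjusted p = 6.99e-05). The peak 2.4 kb inside had scaled log2 levels of 2.77, 3.36, 3.70 and 2.14 in rest-phase libraries, against 6.27, 6.18, 6.54 and 4.89 in first-phase libraries, a fall of 2.86, and the peak 14.2 kb upstream fell by 1.63. Each of the 2 peaks given by library was lower in every rest-phase library than in any first-phase one. The dicarboxylate carrier Slc25a10 had no called peak among 5, with scaled log2 levels of 6.65, 6.80, 6.60 and 6.51 in rest-phase libraries, against 7.00, 6.69, 7.12 and 6.92 in first-phase libraries at its start (log2 fold -0.33 ± 0.22, adjusted p = 0.262).

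Cofactor and nucleotide carriers had 8 rises and 9 falls among 66 peaks, against 19.8% and 18.7% of all peaks. Among them were the largest falls of the family, away from the starts. Slc25a51, the NAD carrier, had scaled log2 levels of 3.29, 3.00, 2.54 and 2.70 in rest-phase libraries, against 6.84, 6.77, 7.37 and 6.20 in first-phase libraries at a peak 1.6 kb inside (chr4:45402851-45403250). The phases were far apart and the log2 fold was -3.87 ± 0.36 (adjusted p = 3.37e-06). Its 3′ UTR peak 8.2 kb inside fell by 2.77, where first-phase B2 (3.92) was near the rest-phase B libraries (3.70 and 3.53) and the other first-phase libraries had 6.27 to 6.69. Its start peak fell by 0.70 (adjusted p = 0.0102, and 0.0534 without first-phase library B1), with a log2 fold of -1.43 under median-of-ratios scaling.

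Slc25a26, the S-adenosylmethionine carrier, fell by 3.53 at an intronic peak 10.6 kb inside (chr6:94518184-94518583), where levels were 2.89, 2.17, 1.94 and 2.39 in the rest phase, against 6.14, 6.69, 7.02 and 4.22 in the first phase. Slc25a42, the coenzyme A carrier, had scaled log2 levels of 1.94, 2.54, 3.53 and 3.38 in rest-phase libraries, against 5.59, 6.65, 6.60 and 5.63 in first-phase libraries at a peak 10.5 kb inside, a fall of 3.24 (adjusted p = 5.14e-05), while its start was not called (-0.28, adjusted p = 0.0944). That start was called lower in 4 of 15 alternatives, with a log2 fold down to -1.38 under median-of-ratios scaling. The pyrimidine nucleotide carriers gave rises as well. Slc25a33 had scaled log2 levels of 8.05, 7.63, 7.00 and 6.80 in rest-phase libraries, against 5.21, 3.85, 5.42 and 5.70 in first-phase libraries at a peak 46.3 kb upstream, a rise of 2.16 ± 0.35 (adjusted p = 0.000249). It fell by 1.41 at one 16.3 kb upstream, and Slc25a36 rose by 1.38 at a peak 5.2 kb upstream of an inner start. Slc25a32 fell by 0.55 at its start (adjusted p = 0.0173, and 0.0795 without first-phase library B1), with a log2 fold of -1.57 under median-of-ratios scaling.

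Among the 10 genes of this group only Slc25a17 and Slc25a39 had higher start peaks after quantile scaling. Slc25a17, which carries cofactors into peroxisomes, rose by 0.41 at its start (levels of 8.85 to 9.0 in the 4 rest-phase libraries, against 8.42 to 8.68 in the 4 first-phase libraries), a call also lost when any of 4 libraries was left out (rest-phase A2, B1 or B2 or first-phase B2). Slc25a39 rose by 0.51 (9.28, 9.30, 9.52 and 9.44 in the rest phase, against 8.92, 8.91, 9.02 and 8.79 in the first phase). Both signs turned under total-read and median-of-ratios scaling, with log2 folds down to -0.34 and -0.42 and no call, so these 2 rises depend on the scaling. The other glutathione-linked member, Slc25a40, and Slc25a16 had no called peak among 6 and 2, but the Slc25a16 start (log2 fold -0.62, adjusted p = 0.0504) was called lower in 8 of 15 alternatives.

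The remaining members gave fewer calls. Of 12 peaks of the uncoupling-protein-like Slc25a14, Slc25a27 and Slc25a30, 1 rose and 1 fell, both at Slc25a30, against 19.8% and 18.7% of all peaks. The peak 3.5 kb upstream had scaled log2 levels of 7.56, 7.89, 7.04 and 7.29 in rest-phase libraries, against 5.70, 4.75, 4.45 and 6.29 in first-phase libraries, and rose by 2.13 (adjusted p = 0.000361). The peak 2.7 kb inside a transcript had scaled log2 levels of 2.46, 3.00, 3.53 and 2.39 in rest-phase libraries, against 6.27, 5.79, 5.07 and 5.21 in first-phase libraries, and fell by 2.56 (adjusted p = 0.000199). At both peaks the phases were apart. Among 29 peaks of carriers without a listed substrate, 2 rose and 4 fell, against the same shares of all peaks. Slc25a45 rose at its start (chr19:5877788-5878187), with scaled log2 levels of 9.30, 9.15, 8.56 and 8.77 in rest-phase libraries, against 8.04, 8.18, 7.82 and 8.63 in first-phase libraries (log2 fold 0.82 ± 0.23, adjusted p = 0.0115). Rest-phase B1 lay below first-phase B2, so the phases overlapped there, and the call was lost under total-read and median-of-ratios scaling, without first-phase library B1 and with only group B. Slc25a43 had scaled log2 levels of 6.93, 6.51, 6.51 and 6.73 in rest-phase libraries, against 3.22, 4.54, 4.91 and 4.36 in first-phase libraries at an intronic peak 14.9 kb inside, a rise of 2.25 ± 0.30 (adjusted p = 4.87e-05). Slc25a53 fell at 3 of 5 peaks, by 0.78 at its start, and by 1.88 and 1.48 further in, with 2 of these calls lost without first-phase library B1 (the start and the one of 1.88), and Slc25a47 fell by 1.77 at a 3′ UTR peak. As a wider setting, the 186 peaks of 25 other mitochondrial transport genes had 30 rises and 44 falls, with a median log2 fold of -0.05. These genes include the voltage-dependent channels Vdac1 to Vdac3, the pyruvate carriers Mpc1 and Mpc2 and the calcium uniporter Mcu. Over all peaks the median was 0.02, with 19.8% higher and 18.7% lower.

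**Figure D3:**
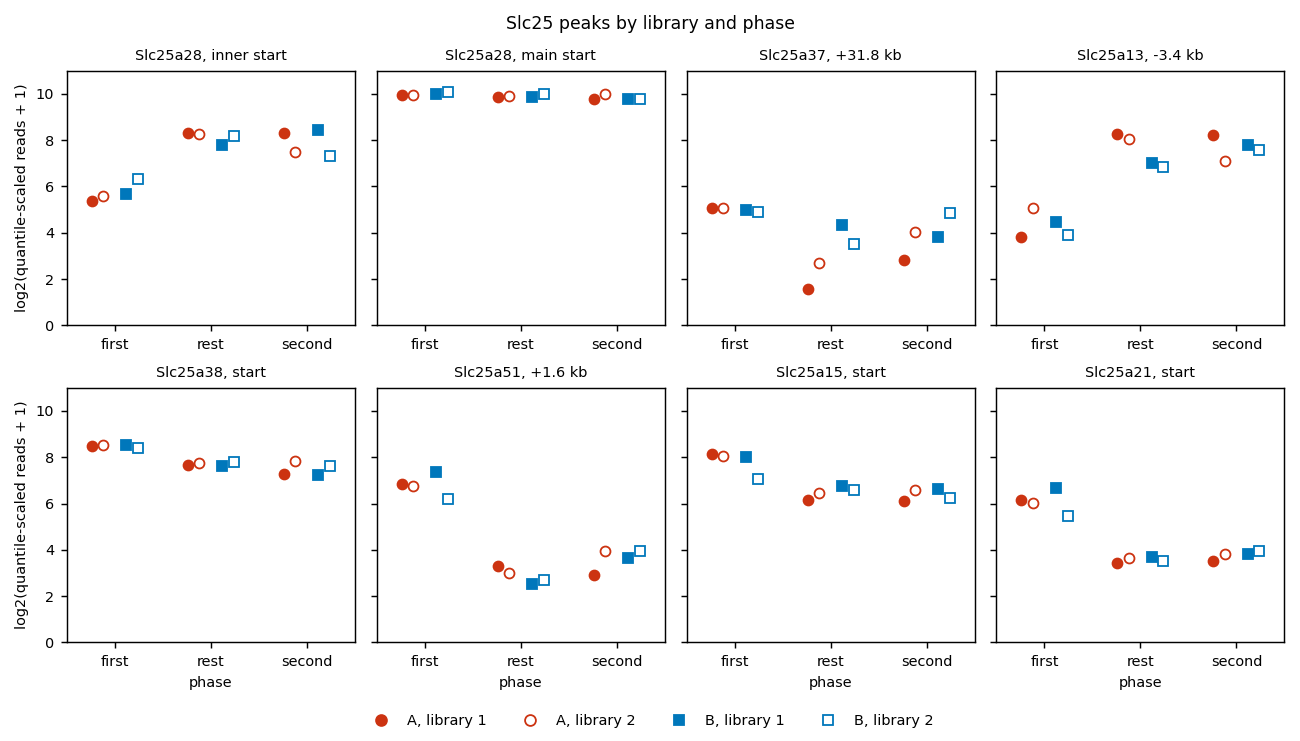
Levels of 8 Slc25 peaks, log2(quantile-scaled reads + 1), in each library of the first, rest and second phases (circles group A, squares group B, filled library 1, open library 2). The main start of Slc25a28 lies between 9.77 and 10.06 in all libraries, its inner start and the Slc25a13 peak 3.4 kb upstream are higher in the rest phase, and the Slc25a37, Slc25a51, Slc25a15, Slc25a21 and Slc25a38 peaks are lower.

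In the second phase against the rest phase (n = 4 each, groups pooled) no peak of the family and no peak at all passed limma at an adjusted p under 0.05 (0.0% in either direction), and 12 of 213 Slc25 peaks and 15966 of 139557 peaks had an unadjusted p under 0.05. The Slc25 peaks of smallest unadjusted p were those of Slc25a51 6.5 kb inside, Slc25a21 7.1 kb upstream and Slc25a54 23.9 kb upstream. At the Slc25a51 peak the libraries A1, A2, B1 and B2 had 4.25, 3.84, 3.82 and 3.26 in the second phase, against 4.62, 4.42, 5.43 and 4.86 in the rest phase. At the Slc25a21 peak (chr12:57204538-57204937) they had 2.35, 6.76, 3.82 and 6.68 in the second phase, against 2.70, 2.54, 0.66 and 3.21 in the rest phase. A2 and B2 were the highest there, as they were for the IFN-γ and LPS response genes.

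Without second-phase libraries A1 and B1 (n = 2 against 4), a choice made after their levels were seen, 14 Slc25 peaks were higher and 10 lower (6.57% and 4.69%, against 9.14% and 6.11% of all peaks). Within 1 kb of a start 0 were higher and 3 lower (against 4.38% and 7.62% of all such peaks). Without A2 and B2 instead, no peak was called, with 16 Slc25 peaks and 8508 of all 139557 peaks at an unadjusted p under 0.05. The following peaks were named after their values were seen. At 2 distal peaks upstream of Slc25a54 (chr3:109055081-109055480 and chr3:109056198-109056597) the second-phase libraries had 2.35, 7.36, 1.66 and 7.64 at the first, against 2.46, 2.77, 2.54 and 2.39 in the rest phase, and 2.81, 7.05, 4.33 and 7.73 at the other, against 2.60, 2.70, 4.35 and 2.39. Without A1 and B1 their log2 folds were 5.09 ± 0.34 and 4.49 ± 0.55 and that of the Slc25a21 peak was 4.62 ± 0.64. An intronic Slc25a13 peak 4.5 kb from a start had 3.83, 6.64, 3.22 and 6.49 in the second phase, against 3.85, 4.00, 3.36 and 4.09 in the rest phase (2.84 without A1 and B1). At these 4 peaks A2 and B2 had levels of 6.49 to 7.73, against 0.66 to 4.71 in the 10 other libraries.

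Falls without A1 and B1 were smaller. Slc25a4 fell by 2.47 at a peak 8.2 kb beyond its start, with 3.79, 1.50, 4.80 and 1.94 in the second phase, against 3.98, 3.68, 3.87 and 4.60 in the rest phase. The Slc25a3 peak 13.3 kb upstream, which had risen between the first and rest phases, fell by 1.14, with 8.13, 6.61, 8.50 and 6.76 in the second phase, against 8.09, 8.33, 7.55 and 7.62 in the rest phase. The inner start of Slc25a28 fell by 0.63 (adjusted p = 0.0421) and the Slc25a13 start by 1.00 (adjusted p = 0.0245). The main start of Slc25a28 had 9.77, 10.00, 9.77 and 9.77 in the second phase, against 9.86, 9.89, 9.85 and 9.98 in the rest phase, with a log2 fold of -0.01 without A1 and B1. With all 4 second-phase libraries none of these differences was called.

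**Figure D4:**
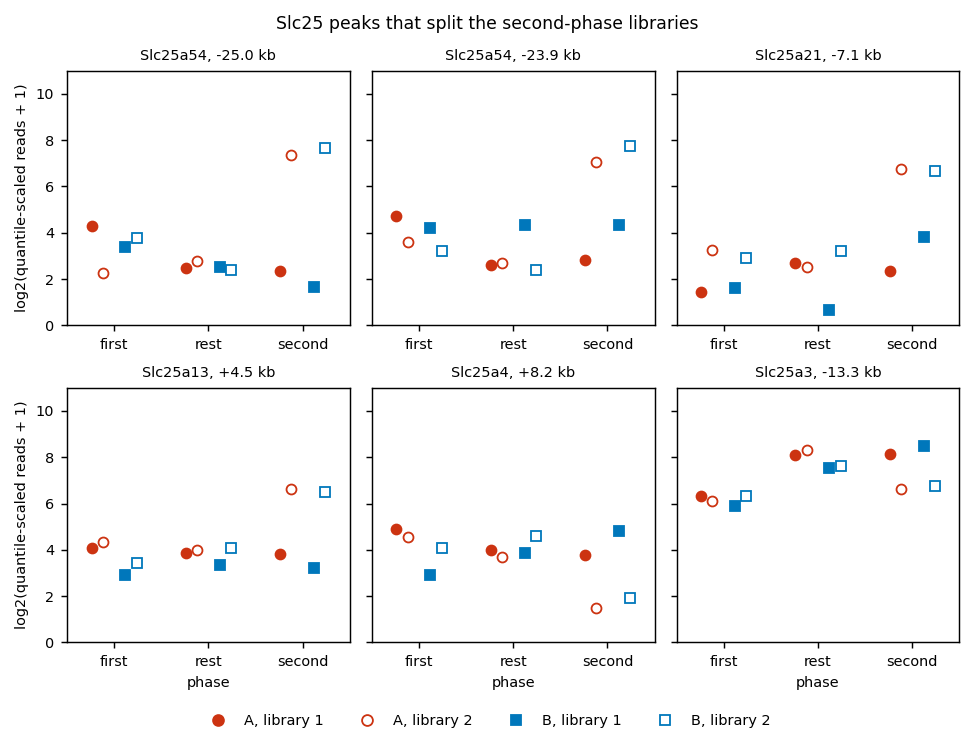
Levels of 6 Slc25 peaks, log2(quantile-scaled reads + 1), by library and phase (symbols by group and library number). Second-phase libraries A2 and B2 (open symbols) stand above A1 and B1 at the Slc25a54, Slc25a21 and Slc25a13 peaks and below them at the Slc25a4 and Slc25a3 peaks, while A1 and B1 stay near the rest-phase levels.

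Within phases the study's question is whether diabetic and control cells differ. In the first phase none of the 213 peaks, and none of all 139999 (0.0% in either direction), passed an adjusted p under 0.05 in the authors' deposited table, where 1 Slc25 peak and 812 of all had an unadjusted p under 0.05. limma on recovered reads likewise called none under any of 3 scalings. With these, 5 to 7 of the 213, and 5214 to 6264 of all 139557 peaks, had an unadjusted p under 0.05. These limma tests use the A pair as 2 libraries, and with the pair counted as 1 limma called none either, with 3 of the 213 and 1958 of all peaks at an unadjusted p under 0.05. The authors' log2 means per gene, taken as the median over its peaks, were higher in A for 26 of 42 genes, with differences of A minus B from -0.60 (Slc25a42) to 0.79 (Slc25a22). The Slc25 peaks of smallest p in the authors' deposited table were an intronic Slc25a43 peak (log2 means of 0.87 in A and 3.42 in B, p = 0.0384), the Slc25a24 peak at 8.9 kb (log2 means of 3.68 in A and 4.76 in B, p = 0.137) and a Slc25a42 peak at 8.1 kb (log2 means of 3.46 in A and 4.49 in B, p = 0.138), all with an adjusted p of 1.

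In the rest phase the authors' deposited table calls 88 of the 213 peaks higher in A and none higher in B, that is 41.3%, against 39.7% and 0.0929% of all peaks. The calls fall in 33 of the 42 genes. In 41 of 42 genes the median log2 mean was higher in A than in B, and the median difference was 1.32. Neither count by gene was made over all genes. Slc25a38 had 8.54 in A and 6.34 in B, the widest gap, and Slc25a54 alone was lower in A, with 2.70 in A and 3.05 in B. By peak the authors' log2 means of A and B differed by a median of 1.34 in the family and of 1.29 over all peaks. The lean towards A was thus not particular to the family. After quantile scaling, limma called 21 Slc25 peaks higher in A and 4 higher in B (9.86% and 1.88%, against 6.48% and 5.56% of all peaks), and with total-read scaling 28 and 21 (against 13.1% and 8.29% of all peaks). Under the authors' own scaling it called 115 and 1 (against 54.9% and 0.461% of all peaks). How far the calls lean towards A thus depended on the scaling. After quantile scaling, leaving out any 1 library of the phase left no call by limma, in the family or over all peaks. Then 31 to 64 of the 213, and 18206 to 46065 of all 139557 peaks, had an unadjusted p under 0.05. The remaining library of a pair was then assumed to vary like the other pair.

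Of the 25 peaks called after quantile scaling, which fell in 14 genes, 20 were also called in the authors' deposited table. Slc25a24, the gene with the most peaks, accounted for 7, all higher in A. Its peak 12.2 kb inside (chr3:109135340-109135739) had levels of 6.55 and 6.60 in A, against 4.04 and 5.02 in B, with a log2 fold of 2.11 ± 0.34 (adjusted p = 0.00682). Its peak at 64.3 kb, the strongest Slc25 call of the authors' deposited table, had there log2 means of 6.50 in A and 3.26 in B (shrunken log2 fold 2.61, adjusted p = 0.000103). Slc25a13 accounted for 4, among them the peak 13.9 kb upstream, with levels of 7.10 and 6.95 in A, against 5.51 and 5.67 in B, and the peak 3.4 kb upstream (log2 fold 1.10 ± 0.14). The other named calls of the authors' deposited table were intronic peaks of Slc25a43 (log2 means of 6.47 in A and 3.80 in B), Slc25a17 (log2 means of 5.20 in A and 2.48 in B) and Slc25a18 (log2 means of 7.10 in A and 4.63 in B) and a promoter peak of Slc25a29 (log2 means of 7.14 in A and 4.71 in B), with adjusted p from 0.00121 to 0.00236. Of these 4 the Slc25a29 peak was not called after quantile scaling.

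Higher in B after quantile scaling were the start peaks of Slc25a34 (log2 fold -1.04 ± 0.24) and Slc25a16 (-0.63 ± 0.14), a Slc25a45 3′ UTR peak (-1.49 ± 0.32) and a Slc25a51 peak 33.5 kb upstream (-1.05 ± 0.28), none of them called in the authors' deposited table. Other values moved with the groups. Rest-phase A held 18602644 and 15990425 reads in peaks and B held 5454821 and 8770052. Macrophage markers had log2 summed levels of 13.62 and 13.54 in A, against 13.18 and 13.22 in B. Neutrophil markers had 10.71 and 10.71 in A, against 11.10 and 10.94 in B, and T and NK cell markers had 11.27 and 11.43 in A, against 11.80 and 11.76 in B. Megakaryocyte markers had 11.40 and 11.26 in A, against 11.57 and 11.57 in B, and dendritic markers had 11.33 and 11.27 in A, against 11.12 and 11.06 in B. The groups overlapped in B cell markers, with 10.38 and 10.43 in A, against 10.39 and 10.31 in B, and in erythroid markers, with 10.79 and 10.90 in A, against 10.83 and 10.77 in B. Their part in the differences was not tested.

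**Figure D5:**
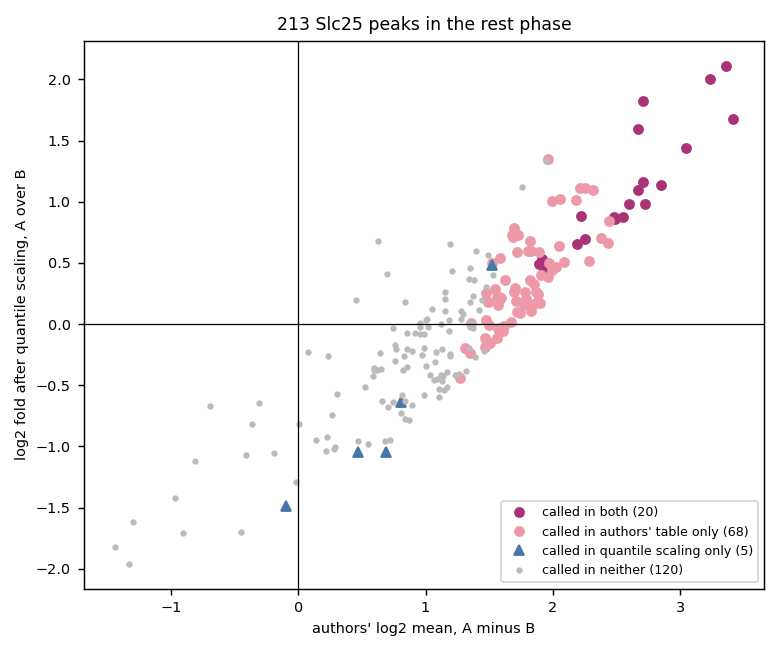
Each of the 213 Slc25 peaks in the rest phase by the authors' log2 mean of A minus B (x axis) and by its log2 fold, A over B, after quantile scaling (y axis), with colours for the test that called it. Of the 213 points 199 lie right of 0 on the x axis, while on the y axis they spread to both sides of 0. The median on the x axis was 1.34 here and 1.29 over all peaks.

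In the second phase the authors' deposited table calls 67 of the 213 peaks higher in A and none higher in B (31.5%, against 26.7% and 0.00429% of all peaks). It lists 50 of the 213, and 38000 of all, at an adjusted p of 1. Of the 42 start peaks 21 were called (50.0%, against 34.2% over the 19377 genes). The named ones include Slc25a13 (log2 means of 7.93 in A and 5.74 in B, adjusted p = 0.0242), Slc25a22 (log2 means of 8.28 in A and 6.16 in B), Slc25a33 (log2 means of 8.86 in A and 6.77 in B) and Slc25a43 (log2 means of 6.24 in A and 4.31 in B). The other named calls were an intronic Slc25a18 peak 9.4 kb inside (log2 means of 6.39 in A and 4.12 in B) and a Slc25a5 peak 5.9 kb beyond the nearest annotated start (log2 means of 6.77 in A and 4.66 in B). The median log2 mean was higher in A for all 42 genes, by 0.02 (Slc25a54) to 1.99 (Slc25a45), a count not made over all genes. By peak A was higher by a median of 1.26 in the family and of 1.14 over all peaks. On recovered reads limma called none of the 213 and none of all peaks under any of 3 scalings. With these, 4 or 5 of the 213, and 1076 to 5331 of all 139557 peaks, had an unadjusted p under 0.05. Within each group library 1 and library 2 were far apart. At the Slc25a13 start, for example, levels were 7.56 and 6.71 in A, against 7.63 and 6.10 in B, so that the groups overlapped. Under the authors' scaling, on the log2(value + 1) scale, A2 minus B2 had a median of 0.47 over the 213 peaks and 0.43 over all, above 0 in 156 of the 213, and A1 minus B1 a median of 1.93 over the 213 and 1.85 over all, above 0 in 195. Second-phase A held 17980427 and 10288843 reads in peaks and B held 3827344 and 6067273, and the part of depth in these differences was not tested.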

How the data were processed

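The members and the gene lists were chosen with earlier results of these data known. Per the submitters' processing notes the build was mm10, and these tools are named without their roles: HOMER 5.1, DESeq2, bedtools 2.28.0, DiffBind 3.14.0, MACS2, Picard 3.2.0, Bowtie2 2.5.4 and deepTools 3.2.1. The authors deposited a table per phase over the same 139999 peaks, with the log2 mean of normalized reads of each group, a shrunken log2 fold change, a p-value and an adjusted p-value per peak, and the nearest gene, per the file headers and values. The fold was turned to A over B here.

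Each group mean was solved for the pair of whole read numbers that gives it, which succeeded for 139557 peaks, all 213 Slc25 peaks among them, and 442 peaks were left out. Within phases a call is the authors' deposited adjusted p under 0.05. Between phases limma 3.58.1 in R 4.3.3 was fitted to log2(reads + 1) after quantile scaling, with a trend in the variance, A and B pooled, the first-phase A pair counted as 1 and Benjamini-Hochberg adjustment over all 139557 peaks. On simulated data (139557 peaks, 200 changed) 84% of 4-fold and 8% of 2-fold changes were recovered for rest over first phase, and 87% and 12% for second over rest phase. The simulation gave every library the same dispersion, and a changed peak moved alike in all libraries of a phase. In the data, second-phase A1 and B1 stood apart from A2 and B2, so the 87% and 12% do not give the recovery for that comparison. For rest over first phase 27620 peaks were called higher and 26106 lower in the data, far more than the 200 changed in the simulation. The adjusted p depends on how many peaks differ, so the 84% and 8% do not give the recovery there either. Alternatives were other scalings, a pseudocount of 5, a mean of at least 10 reads, an adjusted p under 0.01, peaks within 1 kb of a start, single groups and each library left out. Leaving out second-phase A1 and B1, or A2 and B2, or counting the first-phase A pair as 1 within that phase, was added after seeing the data. Values by library are given for Slc25a3, Slc25a4, Slc25a5, Slc25a10, Slc25a11, Slc25a12, Slc25a13, Slc25a22, Slc25a28 and Slc25a37 and, in each comparison, for the 6 called peaks of largest log2 fold in each direction (at most 1 per gene) or, with none called, the 3 of smallest unadjusted p. Other peaks described were chosen after their values were seen.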

Additional observations from a re-analysis of the deposited data

How the results depend on the processing

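No paired analysis was possible because the deposited columns carry no replicate number and the recovered libraries are not tied to those of the labels. Of the 66 Slc25 peaks called between rest and first phases 40 were called in all 15 other fits at the same threshold, and 26 lost the call in at least 1. Among called peaks 2 changed sign, the starts of Slc25a17 and Slc25a39, both under total-read and median-of-ratios scaling. An adjusted p under 0.01 left 24 higher and 23 lower of the 213, and 18540 and 17694 of all 139557 peaks. Peaks within 1 kb of a start gave 4 higher and 15 lower of 48, and 2916 and 7450 of all 23341 such peaks. Leaving out 1 library gave 27 to 33 higher and 26 to 40 lower in the family. Over all peaks it gave 23032 to 28832 higher and 20925 to 27108 lower. For second over rest phase every alternative and every library left out gave 0 calls, except that leaving out second-phase A1 and B1 gave 14 higher and 10 lower. In the rest phase the 88 calls, all higher in A, became 37 at an adjusted p under 0.01 and 17 within 1 kb of a start. Counted in both directions, limma called 25 after quantile scaling (21 higher in A and 4 in B). It called 49 after total-read scaling (28 and 21). Of the 25, 20 were among the 88. Under the authors' own scaling limma called more, 115 higher in A and 1 higher in B. The fits with any 1 rest-phase library left out are described above. In the second phase the 67 calls became 0 at an adjusted p under 0.01, 22 within 1 kb of a start, and 0 with limma under all 3 scalings and with any 1 library left out. The counts of 37, 17 and 22 are given without their shares over all peaks. Fewer peaks are counted within 1 kb of a start, and the cause of the other changes was not tested. The median Slc25 peak held 11 to 61 reads in a library, which limits the precision of single peaks.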
